A study of Danio rerio with 6 samples.

Results

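The collagens, laminins and nidogens are the structural proteins of the extracellular matrix, and 67 genes of these families were measured in the adult zebrafish mesonephros among 31953 genes in all. Genes were taken by symbol, as a collagen alpha chain, a laminin alpha, beta or gamma chain, or nidogen 1 or 2, with at least 10 counts summed over 6 libraries. Another 7 matching genes fell under that minimum. The nearest outside was col9a3 with 8.01 counts, and the nearest inside was COL9A2 with 17.88 counts. Of the 67 genes, 15 were fibrillar collagens (types I, II, V, XI, XXIV and XXVII), 28 were basement membrane genes (collagens IV, VII, XV and XVIII, laminins and nidogens) and 24 were other collagens.

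All fish were adults carrying the transgene Tg(slc12a3:mCherry), which marks the distal late (DL) segment of the nephron in red, driven from the gene of the thiazide-sensitive sodium-chloride cotransporter. The DL group (mCh+) held 3 libraries from DL segments dissected by hand. The rest group (mCh-) held 3 libraries from the mesonephros without those segments, so it holds all other parts of the organ, a kidney that in fish also contains vessels, stroma and blood-forming tissue. How many fish entered a library, and whether DL and rest material shared fish, is not stated, and a p-value here covers only library-to-library spread, which may be technical.

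Basement membranes are thin sheets under epithelia and around vessels. Laminin trimers of an alpha, a beta and a gamma chain form one network and collagen IV trimers another, and nidogens join them. Cells hold laminin mainly through integrins and dystroglycan. Fibrillar collagens, made mostly by fibroblasts, form the fibres of the interstitium. In mammals laminin alpha 5 is the main alpha chain of mature kidney tubules and laminin alpha 4 is typical of vessels. Many of the symbols used here are in capitals, as for the human gene, and genes that share a symbol are given with their identifier.

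The libraries held between 9320756 and 22776825 counts, with 19413 to 21848 genes detected. DL replicate 1 and rest replicate 3 stood apart, with scaling factors (TMM) of 0.52 and 0.533 against 1.14 to 1.80 in the other libraries. The marker SLC12A3 stood at 251, 905 and 32.9 CPM (counts scaled to library size) in DL and at 41.9, 30.4 and 43.0 CPM in the rest, each in the order of replicates 1 to 3, as in all values that follow, so the library labelled DL replicate 3 lay within the range of the rest. Another 3 of the 5 DL markers, clcnk, bsnd and atp1a1a.2, and 6 of the 7 tubule epithelium marker genes, PAX8 and CDH17 among them, were higher in every DL library than in every rest library. Of all genes tested, 6.82% were. For these 3 DL markers DL replicate 3 was the lowest DL library. It stood at 11.2 CPM for clcnk, 5.39 for bsnd and 14.1 for atp1a1a.2, against at most 9.50, 3.20 and 2.22 CPM in the rest. The fifth DL marker, TRPM6, overlapped, at 12.5, 8.24 and 7.66 CPM in DL and 1.83, 13.4 and 7.45 CPM in the rest. Leaving out single libraries moved many fold changes, and for several genes the value or range that this gave is printed beside the main one.

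In the DL segments, the laminin genes lama3, LAMA5 and lamb2l and 1 copy of collagen XVIII had higher values than in the rest. Laminin alpha 4, 1 copy of nidogen 1 and most fibrillar and other collagens had lower values. Of the 11 laminin genes tested, 6 had positive and 5 negative fold changes. No collagen, laminin or nidogen gene passed edgeR's quasi-likelihood test after Benjamini-Hochberg adjustment over all genes at 0.05. In that test 0.0644% of the 17083 genes tested were called higher in DL and 0% lower. Of the 67 genes, 54 had enough counts to be tested, and 39 of these (72.2%) had a negative log2 fold change of DL minus rest, against 53.5% of all genes tested. Their median was -0.74, against -0.07 for all genes tested. In bulk tissue, fewer cells of a type and less RNA per cell cannot be told apart.

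At an unadjusted p under 0.05, 5 of the 54 were lower in DL (2.73% of all genes tested were) and 3 were higher (4.09% of all genes). The lower ones were col11a1b, lama4, NID1_ENSDARG00000068710, col6a4a and COL12A1_ENSDARG00000078322, and the higher ones were lama3, lamb2l and col18a1a. In 9 genes every DL library lay below every rest library, a pattern shown by 6.28% of all genes tested. Among the 9 is col28a1b, which reached the count filter through the rest libraries alone. In 5 genes every DL library lay above every rest library, shown by 6.82% of all genes. That separation depended on the scaling: with library size as the only scaling, 15 genes lay below and 0 above in every DL library, while lama3, LAMA5, lamb2l and col18a1a kept positive fold changes. The median of all genes tested was then -0.50 in place of -0.07. The share of all genes separated under that scaling was not computed, so the 15 and 0 cannot be set against it. Without rest replicate 3, 2 genes were lower and 6 higher at the unadjusted threshold. Without DL replicate 1, 11 were lower and 1 was higher, and without DL replicate 3, 11 were lower. The shares of all genes with a library left out were not computed.

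**Figure D1:**
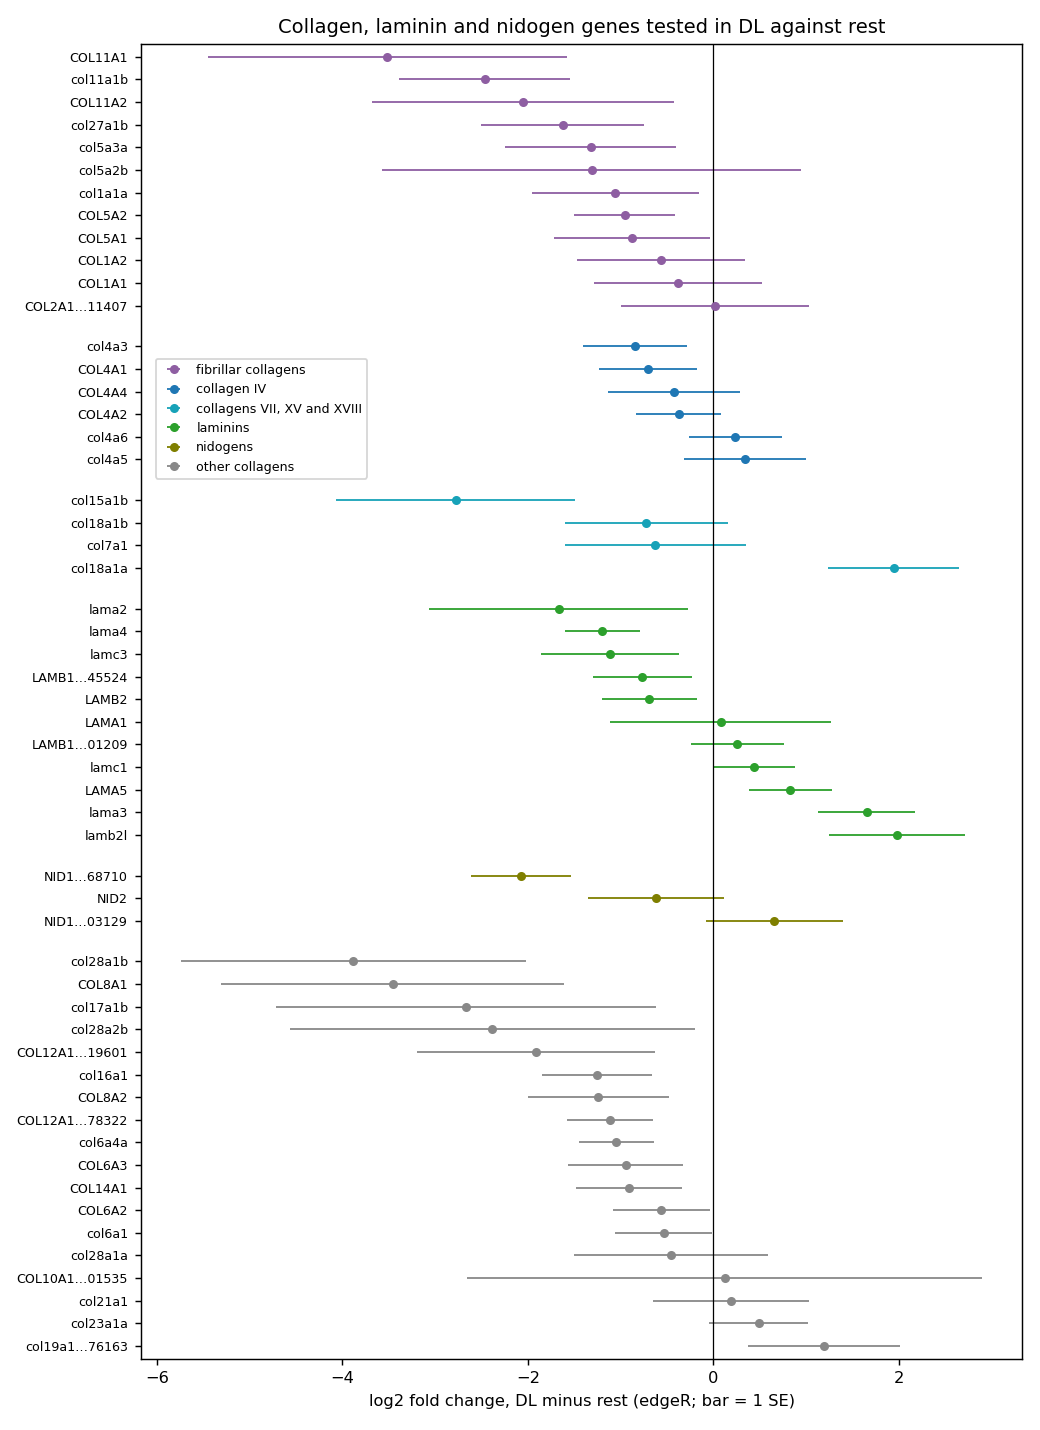
Each point is the log2 fold change of DL minus rest for 1 of the 54 genes tested, with a bar of 1 standard error on each side, from edgeR on 3 libraries per group. Of the 12 fibrillar collagens, 11 lie left of 0, while the laminins lie on both sides, from -1.67 for lama2 to 1.98 for lamb2l. Genes that share a symbol carry the last digits of their identifier.

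Each laminin chain type, alpha, beta and gamma, held genes with positive and genes with negative fold changes. Among the alpha chains, lama3 and LAMA5 were higher and lama4 was lower in every DL library than in every rest library. The gene lama3 encodes the alpha chain of the laminin that anchors mammalian skin epithelium, with levels of 29.9, 30.1 and 22.0 CPM in DL and of 13.4, 7.58 and 4.91 CPM in the rest. Its means were 27.3 ± 4.59 CPM for DL and 8.62 ± 4.32 CPM for the rest (SD, n = 3 each). All DL values lay above all rest values, also in the library labelled DL replicate 3, in which SLC12A3 was at the level of the rest. By edgeR the log2 fold change was 1.65 ± 0.52 (SE) with an adjusted p of 0.412.

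LAMA5, the alpha chain of mature tubule basement membranes in mammals, stood at 207, 106 and 112 CPM in DL and at 78.1, 74.9 and 86.2 CPM in the rest. The rest values were close together and all DL values exceeded them, DL replicate 1 by the most. A log2 fold change of 0.83 ± 0.45 (SE, adjusted p = 0.825) resulted, and it was 0.50 without DL replicate 1.

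The gene lama4, whose alpha chain is found in vessel walls in mammals, stood at 25.01, 26.1 and 24.5 CPM in DL and at 43.8, 64.8 and 64.7 CPM in the rest. The DL values differed by less than the spread of the rest, and all lay below them. Its log2 fold change was -1.20 ± 0.41 (SE, adjusted p = 0.487), and it ranged from -1.57 to -1.09 over 14 alternatives. Summed CPM of the 13 endothelial marker genes matched was 296, 605 and 1133 in DL and 831, 797 and 856 in the rest, so it overlapped between the groups where lama4 did not, and DL replicate 3 had the highest endothelial sum. In the fit, 11 of the 12 endothelial genes tested had negative fold changes. Their part in the lama4 difference was not tested.

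The remaining alpha chains were thinly counted. The gene lama2, the alpha chain of muscle laminin, had 133 counts over all libraries and a log2 fold change of -1.67 ± 1.40 (SE). LAMA1, the alpha chain of embryonic basement membranes in mammals, had 490 counts, of which 286 came from DL replicate 2, and a log2 fold change of 0.08 ± 1.19 (SE) by edgeR against 2.43 by limma-voom. Neither gene passed the test with either tool.

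Of the beta chains, lamb2l was the one with separate groups. It is a beta 2-like gene that lies next to lamb2 in the RefSeq annotation of assembly GRCz12tu. It stood at 99.9, 37.4 and 40.1 CPM in DL and at 25.7, 2.55 and 16.8 CPM in the rest. All DL values were above all rest values, and rest replicate 2 was far below the other rest libraries. This gave a log2 fold change of 1.98 ± 0.73 (SE, adjusted p = 0.535), between 1.41 and 2.65 on leaving out 1 library.

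Its neighbour LAMB2, which encodes the beta chain of the glomerular basement membrane in mammals, had the opposite sign and overlapping groups, with means of 22.6 ± 6.02 CPM for DL and 36.4 ± 17.99 CPM for the rest (SD) and a log2 fold change of -0.69 ± 0.51 (SE). Both copies of LAMB1 overlapped between the groups as well. LAMB1_ENSDARG00000045524 had a log2 fold change of -0.77 ± 0.53 and LAMB1_ENSDARG00000101209 one of 0.26 ± 0.50 (SE). Reads of related copies may have been shared between them in counting, so values of single copies are uncertain.

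The gamma chain gene lamc1, the partner in most laminin trimers, stood at 198, 119 and 120 CPM in DL and at 125, 109 and 88.6 CPM in the rest. Its groups overlapped, and the log2 fold change of 0.44 ± 0.44 (SE) did not exceed the spread; with library size as the only scaling it was -0.21. The gene lamc3 had a log2 fold change of -1.11 ± 0.75 (SE). The gene lamb3, which in mammals encodes the beta chain partner of laminin alpha 3, had 57 counts over all libraries and was not tested. In DL it had 11, 0 and 0 counts, so of the DL libraries it was detected in replicate 1 alone, and in the rest it had 5, 0 and 41 counts.

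**Figure D2:**
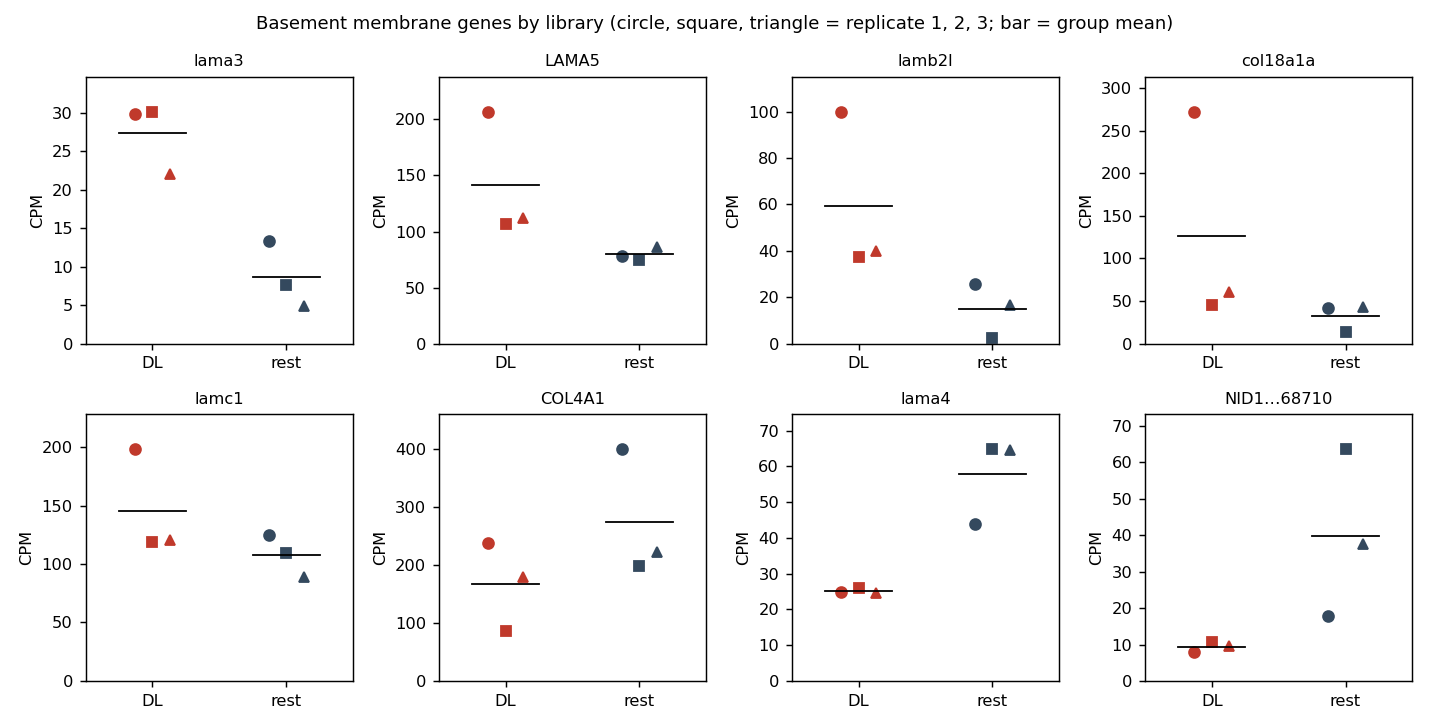
CPM of 8 basement membrane genes in each library, DL in red and rest in dark, with the group mean as a bar and replicates 1, 2 and 3 as circle, square and triangle. In lama3, LAMA5, lamb2l and col18a1a all DL points lie above all rest points, in lama4 and NID1_ENSDARG00000068710 all lie below, and in lamc1 and COL4A1 the groups overlap.

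The nidogens, which bridge laminin and collagen IV, differed between copies of the same gene. NID1_ENSDARG00000068710 stood at 7.92, 10.8 and 9.46 CPM in DL and at 17.7, 63.6 and 37.6 CPM in the rest. The DL values lay close together and below every rest value, and the rest values were far more spread than those of DL. Its log2 fold change was -2.07 ± 0.54 (SE), with an adjusted p of 0.265 by edgeR and 0.0326 by DESeq2, where 0.342% of genes were called lower. Over 14 alternatives the adjusted p ranged from 0.0326 to 0.928, and this was the 1 gene of the 67 that any alternative called.

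The second copy, NID1_ENSDARG00000103129, stood at 30.01, 9.83 and 10.02 CPM in DL and at 5.63, 4.06 and 22.2 CPM in the rest. Its groups overlapped, with a log2 fold change of 0.66 ± 0.74 (SE), which was -0.02 without DL replicate 1. The count ratio of the first copy to the second within a library, which no scaling can change, was 0.264, 1.1 and 0.943 in DL and 3.15, 15.7 and 1.69 in the rest. These ratios did not overlap, with 1.1 in DL replicate 2 and 1.69 in rest replicate 3 the nearest. The pair was chosen after the values were seen. NID2 had a log2 fold change of -0.62 ± 0.73 (SE), and nid2b, with 61 counts, was not tested.

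The collagen IV genes, which form the network that gives basement membranes their strength, showed no separation between DL and rest. The 6 genes code for alpha chains that join in fixed trimers, and in assembly GRCz12tu they lie as the neighbouring pairs col4a1 and col4a2, col4a3 and col4a4, and col4a5 and col4a6. COL4A1, in nearly all basement membranes, stood at 237, 86.8 and 179 CPM in DL and at 400.0, 199 and 222 CPM in the rest. DL replicate 2 was lowest and rest replicate 1 highest, and DL replicate 1 lay above rest replicates 2 and 3. Its log2 fold change was -0.71 ± 0.53 (SE, adjusted p = 0.960).

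The values for the other collagen IV chains were as close to 0 or closer, apart from col4a3. The log2 fold change was -0.38 ± 0.46 for COL4A2, -0.84 ± 0.56 for col4a3, -0.42 ± 0.71 for COL4A4, 0.34 ± 0.66 for col4a5 and 0.24 ± 0.50 for col4a6 (SE). The chains alpha 3 and alpha 4, typical of the glomerulus in mammals, and the chains alpha 5 and alpha 6, of which the latter is typical of Bowman's capsule and tubules, thus had opposite signs. Both positive values turned negative with library size as the only scaling, at -0.27 for col4a5 and -0.44 for col4a6. Without DL replicate 1 they were -0.66 and -0.34. The podocyte markers beside them had 9 of 9 negative fold changes, and their summed CPM was 287, 341 and 455 in DL and 686, 622 and 418 in the rest. Their part in the collagen IV values was not tested.

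Collagens XV and XVIII, related basement membrane collagens that carry sugar chains and whose ends are cut to endostatin-type fragments in mammals, differed in sign between copies: col18a1a was positive, and col18a1b and col15a1b were negative. The gene col18a1a stood at 272, 45.8 and 61.0 CPM in DL and at 41.5, 14.03 and 43.2 CPM in the rest. All DL values exceeded all rest values, but DL replicate 2 only by a little and DL replicate 1 by far. For this gene the log2 fold change was 1.94 ± 0.71 (SE, adjusted p = 0.533) and 0.75 without DL replicate 1.

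Its copy col18a1b had 388 counts and overlapping groups, with a log2 fold change of -0.72 ± 0.88 (SE). The count ratio of col18a1a to col18a1b was 115, 10.8 and 29.3 in DL and 8.90, 6.82 and 5.54 in the rest, without overlap. This pair too was chosen after the values were seen. The gene col15a1b stood at 1.39, 0 and 1.89 CPM in DL and at 5.66, 5.42 and 11.01 CPM in the rest, every DL library below every rest library. Its log2 fold change was -2.78 ± 1.29 (SE, adjusted p = 0.737). Collagen VII, which makes anchoring fibrils under skin, was low in both groups, with 318 counts for col7a1 and a log2 fold change of -0.63 ± 0.98 (SE), or 0.11 without rest replicate 3. The gene col7a1l_ENSDARG00000069692 had 0 counts in DL and 22 in the rest, at least 5.67-fold lower against a floor of 3 counts over the DL libraries together. As 21 of those counts came from rest replicate 1 and 0 from rest replicate 3, the groups overlapped and the bound rests on 1 library.

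Fibrillar collagens had negative fold changes in 11 of the 12 genes tested, with a median of -1.19, against -0.52 for the 24 basement membrane genes tested, of which 14 were negative. None of the 12 was called by edgeR, DESeq2 or limma-voom, which called 0.0351% of all genes higher and 0% lower. At an unadjusted p under 0.05, 1 was lower by edgeR, where 2.73% of all genes were, and 2 by DESeq2, where 4.02% of all genes were. In 1 of the 12 (8.33%), col11a1b, every DL library lay below every rest library, against 6.28% of all genes tested. The medians leaned on single libraries. Without DL replicate 2 the fibrillar median was -0.62, and without rest replicate 3 it was -0.33 with 7 negative genes and the basement membrane median was -0.02. The difference between the medians, fibrillar minus basement membrane, was -0.67 and lay between -1.08 and -0.31 over 14 alternatives. These alternatives reuse the same libraries and do not measure the spread between them. Between libraries of a group, the difference of the class medians of log2 CPM had a pooled SD of 0.675, about as large as the value itself.

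Collagen I, the main fibre of the interstitium, was spread more widely within the DL group than between the groups. The gene col1a1a stood at 543, 21.2 and 319 CPM in DL and at 565, 254 and 1018 CPM in the rest. DL replicate 2 was far below all other libraries, and the other DL values lay inside the range of the rest. The log2 fold change was -1.06 ± 0.90 (SE, adjusted p = 0.979). COL1A1 stood at 739, 36.9 and 217 CPM in DL and 249, 180 and 864 CPM in the rest, and COL1A2, the second chain of the trimer, at 500.3, 21.2 and 210 CPM and 179, 176 and 729 CPM. Their log2 fold changes were -0.38 ± 0.90 and -0.57 ± 0.91 (SE), and that of COL1A1 was 0.16 without DL replicate 2 and 0.63 without rest replicate 3.

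COL1A1 and COL1A2 moved together across libraries, and col1a1a followed them less closely. The summed CPM of the 3 collagen I genes was 1782, 79.4 and 746 in DL and 993, 611 and 2610 in the rest, a span of 32.9-fold. Over the same libraries the count ratio of COL1A1 to COL1A2 lay between 1.02 and 1.74. That of col1a1a to COL1A2 lay between 1 and 3.15 and was highest in rest replicate 1. The lowest collagen I sum was in DL replicate 2, the library with the highest SLC12A3. The highest sums were in DL replicate 1 and rest replicate 3, whose low TMM factors raise every CPM value there by construction. Scaled without TMM factors, the collagen I sums were 925, 92.2 and 846 in DL and 1781, 918 and 1387 in the rest. Rest replicate 1 was then highest and DL replicate 2 still lowest, so the 32.9-fold span depends in part on the TMM factors. As a share of all counts, with no TMM scaling, the fibrillar genes took 0.107%, 0.0125% and 0.0985% in DL and 0.217%, 0.116% and 0.164% in the rest. These shares did not overlap, but DL replicate 1 and rest replicate 2 nearly met. Without TMM factors the median log2 fold change of all genes tested was itself -0.50. With TMM factors the fibrillar sums overlapped, from 108 to 2053 CPM in DL and from 772 to 3089 CPM in the rest.

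Collagen V, which starts the assembly of collagen I fibres, was lowest in DL replicate 2 for its 2 most counted genes. COL5A1 stood at 154, 7.86 and 51.1 CPM in DL and at 105, 57.3 and 228 CPM in the rest, and COL5A2 at 67.9, 15.3 and 40.2 CPM and at 63.8, 69.0 and 106 CPM. Its log2 fold change was -0.88 ± 0.84 and that of COL5A2 was -0.95 ± 0.54 (SE). The thinly counted col5a3a and col5a2b had -1.32 ± 0.93 and -1.31 ± 2.26 (SE) and other orders of the libraries: col5a3a was highest in rest replicate 1, and col5a2b had 0 counts in DL replicates 1 and 2 and in rest replicate 1.

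Collagen XI, a minor fibrillar collagen best known from cartilage, had the most negative fold changes of the class, but on few counts apart from col11a1b. The gene col11a1b stood at 5.56, 0.189 and 3.88 CPM in DL and at 15.6, 13.8 and 22.9 CPM in the rest. Every DL library lay below every rest library, and the log2 fold change was -2.47 ± 0.92 (SE, adjusted p = 0.548). COL11A1, with 90 counts of which 44 came from rest replicate 3, had -3.51 ± 1.93 (SE), between -8.67 and -1.45 on leaving out 1 library. COL11A2 had -2.05 ± 1.63 (SE), a value that rests on rest replicate 3: it stood at 4.03, 0.0378 and 0.946 CPM in DL and at 0.639, 0.271 and 19.7 CPM in the rest, so that the other rest libraries lay within the DL range. The gene col27a1b, another cartilage fibrillar collagen, had -1.62 ± 0.88 (SE), between -2.94 and -1.10 on leaving out 1 library.

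COL2A1_ENSDARG00000011407, the main cartilage collagen, was the 1 fibrillar gene with a positive value, at a log2 fold change of 0.02 ± 1.01 (SE), and it was negative in 7 of 14 alternatives. The other copy, COL2A1_ENSDARG00000069093, had 0 counts in DL and 84 in the rest, 69 of them in rest replicate 3, and was at least 21.6-fold lower. The gene col5a3b likewise had 76 of its 77 counts in rest replicate 3. With col24a1 (51 counts) these were the fibrillar genes not tested.

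**Figure D3:**
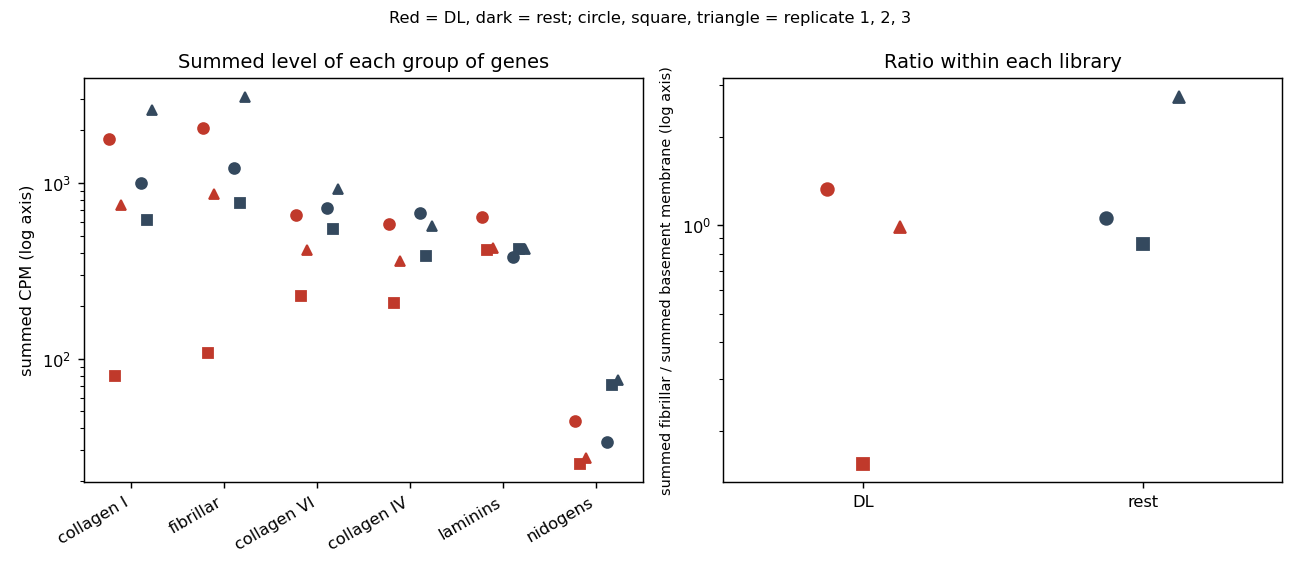
Left, summed CPM of 6 groups of genes in each library on a log axis; right, the ratio of summed fibrillar to summed basement membrane CPM on a log axis. Red marks DL, dark marks rest, and circle, square and triangle mark replicates 1, 2 and 3. Collagen I ranges from 79.4 CPM in DL replicate 2 to 2610 CPM in rest replicate 3, laminins only from 376 to 639 CPM, and the ratio is lowest in DL replicate 2. Scaled without TMM factors, laminins range from 222 CPM in rest replicate 3 to 674 CPM in rest replicate 1.

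Summed over the class, the levels of fibrillar genes and of basement membrane genes overlapped between the groups. Those of the other collagens did not, at 785, 303 and 621 CPM in DL and 944, 803 and 1225 CPM in the rest. Scaled without TMM factors, the other collagens overlapped too, as DL replicate 3 (705) lay above rest replicate 3 (651). Fibrillar genes had a mean sum of 1010 ± 981 CPM for DL and 1690 ± 1231 CPM for the rest, and basement membrane genes one of 1043 ± 448 and 1055 ± 138 CPM (SD, n = 3 each). The ratio of the fibrillar to the basement membrane sum within a library was 1.33, 0.154 and 0.985 in DL and 1.06, 0.861 and 2.73 in the rest. It was thus lowest in DL replicate 2 and highest in rest replicate 3, and DL replicates 1 and 3 lay among the rest libraries. Within the basement membrane class, laminin sums were the steadiest with TMM factors, from 414 to 639 CPM in DL and 376 to 418 CPM in the rest. Collagen IV sums ranged from 207 to 584 and from 384 to 673 CPM. Scaled without TMM factors, the laminin sums were 332, 481 and 485 in DL and 674, 629 and 222 in the rest. Their narrow range thus depends on the TMM factors.

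Markers of stroma had negative fold changes too, though none was called. All 10 fibroblast and stromal marker genes tested had negative fold changes, and their summed CPM was 148, 97.9 and 145 in DL and 228, 306 and 208 in the rest, without overlap. Across libraries these sums did not keep the order of the fibrillar sums: rest replicate 3 had the lowest stromal and the highest fibrillar sum of the rest. For smooth muscle and pericytes 9 of 11 were negative, and the sums of 492, 372 and 584 CPM in DL lay below the 935, 828 and 754 CPM of the rest. Of the stromal markers PDGFRB had the smallest unadjusted p by edgeR. It stood at 23.6, 18.1 and 21.9 CPM in DL and 31.2, 60.4 and 48.8 CPM in the rest. Its adjusted p by edgeR was 0.578, and it was measured in every DL library. Other stromal markers changed little and overlapped: PDGFRA had a log2 fold change of -0.17 ± 0.47, twist1a -0.07 ± 0.87 and TCF21 -0.03 ± 1.69 (SE). DCN (decorin) and LUM (lumican) are in both the stromal and the collagen processing list. All 7 myeloid marker genes tested had negative fold changes as well, with a median of -1.53 and 0 called. The myeloid sum, 58.4, 391 and 147 CPM in DL and 325, 885 and 99.8 CPM in the rest, overlapped. The part of these cells in the collagen values was not tested.

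Among the other collagens 14 of the 18 tested were negative (53.5% of all genes tested were), with a median of -0.996, and 5 (27.8%) had every DL library below every rest library, against 6.28% of all genes. Among the 5 is col28a1b, which reached the count filter through the rest libraries alone, so its place in that count is partly set by the filter. Collagen VI forms beaded filaments beside cells. Its gene col6a4a stood at 50.3, 42.1 and 45.1 CPM in DL and at 92.2, 83.6 and 108 CPM in the rest. On these TMM-scaled values both groups were tight and did not overlap. The log2 fold change was -1.05 ± 0.40 (SE, adjusted p = 0.571), between -1.47 and -0.92 over 14 alternatives.

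The other collagen VI genes overlapped between the groups. COL6A3 stood at 239, 37.1 and 146 CPM in DL and 205, 275 and 335 CPM in the rest, with a log2 fold change of -0.95 ± 0.62 (SE), between -1.52 and -0.49 on leaving out 1 library. The genes col6a1 and COL6A2 had -0.54 ± 0.53 and -0.56 ± 0.52 (SE). Their count ratio lay between 1.04 and 1.39 in all 6 libraries, while that of col6a1 to COL6A3 ranged from 0.35 in rest replicate 2 to 2.33 in DL replicate 2.

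Several fibril-associated collagens, which coat fibrillar collagens, were lower in every DL library. COL12A1_ENSDARG00000078322 stood at 25.6, 16.3 and 40.0 CPM in DL and at 45.0, 71.3 and 61.2 CPM in the rest, a log2 fold change of -1.12 ± 0.46 (SE, adjusted p = 0.647). The gene col16a1 stood at 38.5, 5.78 and 21.0 CPM in DL and at 47.9, 52.2 and 54.9 CPM in the rest, a log2 fold change of -1.25 ± 0.60 (SE, adjusted p = 0.758). COL14A1 had -0.91 ± 0.57 (SE), also without overlap, but the groups nearly met at 10.3 CPM in DL replicate 3 and 10.4 CPM in rest replicate 2. The other COL12A1 copy, COL12A1_ENSDARG00000019601, overlapped, with 4 counts in DL replicate 2 and 362 in DL replicate 3.

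The gene col28a1b, a collagen with von Willebrand domains, was the 1 gene that reached the count filter through the rest libraries alone, so its log2 fold change of -3.88 ± 1.86 (SE) is partly set by that filter. It had 4 counts in DL and 128 in the rest. COL8A1 and COL8A2, network collagens of vessel walls, had -3.46 ± 1.85 and -1.24 ± 0.76 (SE), and 253 of the 287 counts of COL8A1 came from rest replicate 2. The gene col17a1b, a hemidesmosome collagen, had -2.67 ± 2.05, and col28a2b and col28a1a had -2.38 ± 2.18 and -0.46 ± 1.05 (SE).

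Positive values among the other collagens were seen in 4 genes. The membrane-spanning col23a1a stood at 14.5, 12.02 and 12.1 CPM in DL and at 8.58, 7.15 and 11.9 CPM in the rest. The groups did not overlap but nearly met, and the log2 fold change was 0.49 ± 0.53 (SE, adjusted p = 0.999). The gene col19a1_ENSDARG00000076163, a fibril-associated collagen found near basement membranes in mammals, had 1.19 ± 0.82 (SE) with overlapping groups.

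A second col19a1 gene, col19a1_ENSDARG00000096073, had 7, 176 and 3 counts in DL and 0 in every rest library, at least 80.2-fold higher in DL against a floor of 3 counts over the rest libraries together. Nearly all of its counts came from DL replicate 2, and it did not reach the count filter. In the reverse direction col14a1b had 0 counts in DL and 51 in the rest, at least 13.1-fold lower in DL. COL10A1_ENSDARG00000101535, a collagen of growth cartilage, had 413 of 428 DL counts in DL replicate 3 and 227 of 228 rest counts in rest replicate 3, and a log2 fold change of 0.12 ± 2.78 (SE). The gene col21a1 had 0.19 ± 0.84 (SE). The remaining 4 genes that were not tested, COL10A1_ENSDARG00000054753, col23a1b, col28a2a and COL9A2, had 18 to 67 counts each. Such floors cover counting error only.

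Ratios between genes within a library set the laminin chains against each other without any scaling. The pairs were chosen after the values were seen. The count ratio of lama4 to LAMA5 was 0.121, 0.245 and 0.219 in DL and 0.561, 0.865 and 0.750 in the rest. That of lama4 to lama3 was 0.837, 0.868 and 1.11 in DL and 3.28, 8.55 and 13.2 in the rest. Both were lower in every DL library than in every rest library, DL replicate 3 included. That separation had to follow from the CPM values above, where lama4 was lower and LAMA5 and lama3 were higher in every DL library. It is therefore no further support for them. The ratio of lamc1 to LAMA5 lay between 0.958 and 1.60, and LAMB2 to lamb2l, at 0.239 to 0.693 in DL and 0.622 to 17 in the rest, overlapped narrowly.

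**Figure D4:**
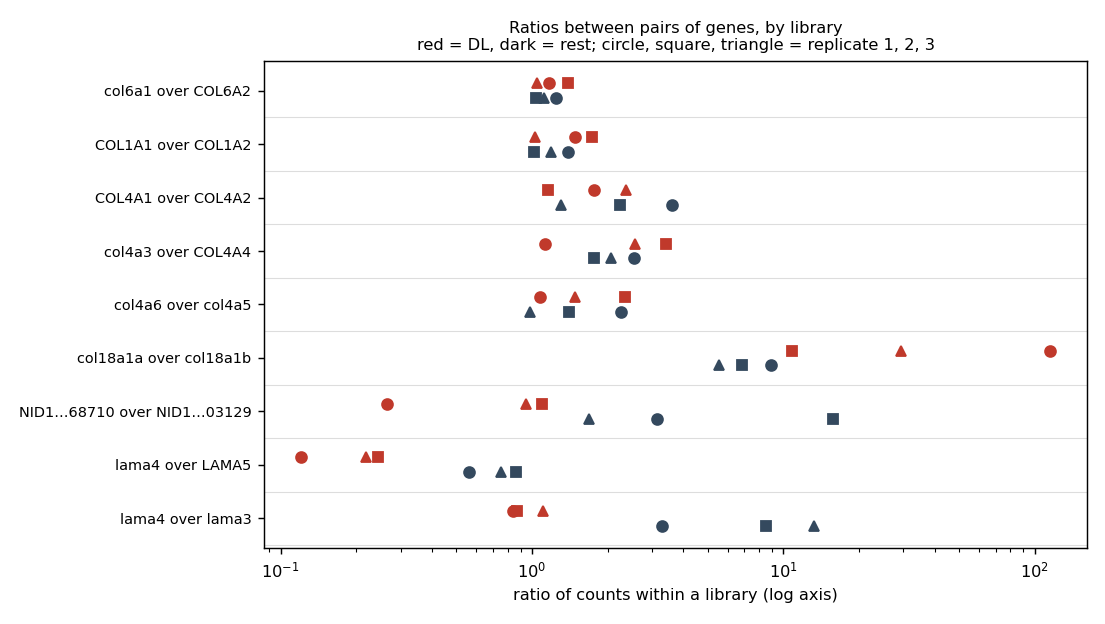
Count ratios of 9 pairs of genes in each library on a log axis, DL in red and rest in dark, replicates 1, 2 and 3 as circle, square and triangle. The ratio of col6a1 to COL6A2 stays between 1.04 and 1.39, the collagen IV pairs overlap between groups, and the ratios of lama4 to LAMA5, lama4 to lama3 and the NID1 copies lie lower in every DL library, that of col18a1a to col18a1b higher.

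The cell surface receptors of matrix included the genes with the clearest differences of the related lists. The gene itga3a encodes the integrin alpha chain that binds laminin with integrin beta 1 in tubule cells of mammals. It stood at 86.7, 67.3 and 35.6 CPM in DL and at 20.3, 11.6 and 7.96 CPM in the rest. ITGB1_ENSDARG00000053232, a copy of integrin beta 1, stood at 96.2, 81.6 and 55.7 CPM in DL and at 23.1, 4.22 and 12.03 CPM in the rest. All DL values of both genes were above all rest values, and DL replicate 3 was the lowest of the DL libraries in each.

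Their log2 fold changes were 2.24 ± 0.53 and 2.56 ± 0.60 (SE). Neither passed edgeR over all genes (adjusted p = 0.191 for each), and DESeq2 called both (adjusted p = 0.00693 and 0.00359), where 1.37% of genes were called higher. Over 14 alternatives the adjusted p ranged from 0.00693 to 0.999 for itga3a and from 0.00359 to 0.999 for ITGB1_ENSDARG00000053232. A second copy, ITGB1_ENSDARG00000071863, had the opposite sign, at 22.6, 14.6 and 35.8 CPM in DL and 36.4, 85.4 and 45.2 CPM in the rest. Its log2 fold change was -1.20 ± 0.51 (SE). The count ratio of the first copy to the second was 4.25, 5.61 and 1.55 in DL and 0.635, 0.0495 and 0.266 in the rest. With the first copy higher and the second lower in every DL library, these ratios could not overlap. Further copies overlapped between the groups. Their log2 fold changes were -0.34 ± 0.41 for ITGB1_ENSDARG00000104484, the most counted copy, and -0.07 ± 0.90 for ITGB1_ENSDARG00000022689 (SE). ITGA3, the other itga3 gene, overlapped as well, at 0.57 ± 0.55 (SE).

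Of the 25 receptor genes tested, 13 had positive values with a median of 0.12, 0 were called by edgeR, and 3 were higher and 3 lower at an unadjusted p under 0.05, against 4.09% and 2.73% of all genes. DDR2_ENSDARG00000100693, a receptor of fibrillar collagens, had -1.80 ± 0.76 and itga2b, the platelet integrin chain, -2.67 ± 1.13 (SE). Among 18 other basement membrane proteins, 10 had negative values, with a median of -0.93, and 0 were called. The highest were fras1 at 1.88 ± 0.58 and FREM2_ENSDARG00000102626 at 1.36 ± 0.47, partners in a complex under kidney epithelium, and the lowest by p were NTN1_ENSDARG00000022531 at -3.90 ± 1.57 and paplna at -2.22 ± 1.11 (log2 fold change ± SE), the last between -2.73 and -0.82 on leaving out 1 library. The gene fras1 stood at 121, 54.0 and 27.1 CPM in DL and 26.4, 12.9 and 15.4 CPM in the rest, with no overlap but a small gap in DL replicate 3.

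Genes for making and maturing collagen were listed by step, and no difference between the lists was tested. Of 25 genes of synthesis and folding, 13 had negative values with a median of -0.07, and 0 were called. PLOD2, which modifies lysines for crosslinks, had -1.42 ± 0.61 and sec23a, of the vesicle coat for export, -0.67 ± 0.53, while P4HA2, a prolyl hydroxylase chain, had 1.84 ± 0.84 (1.39 to 3.44 on leaving out 1 library) and CRTAP, of the prolyl 3-hydroxylase complex, 0.99 ± 0.60 (log2 fold change ± SE). Of 20 genes of processing and crosslinking outside the cell, 18 had negative values, with a median of -0.51 and 0 called. LOX, the crosslinking lysyl oxidase, stood at 0.139, 0.378 and 1.70 CPM in DL and 3.47, 7.53 and 6.27 CPM in the rest, without overlap, a log2 fold change of -2.94 ± 1.12 (SE). The gene pcolcea, an enhancer of procollagen cleavage, had -1.50 ± 0.58 (SE), and the 2 positive ones, BMP1_ENSDARG00000028053 and LOXL3_ENSDARG00000076306, had 1.06 ± 1.85 and 0.36 ± 1.88 (SE).

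Of 22 matrix proteases and inhibitors tested, 16 had negative values, with a median of -0.73 and 0 called. MMP2, a protease of collagen IV and gelatin, stood at 26.7, 3.63 and 28.6 CPM in DL and 40.8, 107 and 74.4 CPM in the rest, without overlap, a log2 fold change of -1.92 ± 0.69 (SE). ADAMTS15_ENSDARG00000029124 had -1.59 ± 0.54 (SE). Positive values were seen for MMP15_ENSDARG00000013072, a membrane-bound protease, at 1.86 ± 0.61, and for ADAMTS1 at 0.98 ± 0.60 (SE). At an unadjusted p under 0.05, 4 genes of this list were lower and 1 higher, 3 processing genes were lower, 1 synthesis gene was lower, and 1 of the other basement membrane proteins was lower and 2 were higher. Over all genes tested, 2.73% were lower and 4.09% higher at that threshold.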

How the data were processed

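Gene-level estimated counts (expected counts), as deposited by the authors, came in a single table with a column for each of the 6 libraries, and 29.8% of its values were fractional. Aligner, counting tool, build and strand handling: not given in the sources used here. Per the labels' protocols, RNA was isolated with a kit from Macherey-Nagel and cDNA libraries were prepared with a NuGEN single-cell kit. Columns were matched to libraries by title, and replicates were numbered in deposition order. Symbols were looked up by identifier.

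After rounding, a filterByExpr filter by group (minimum count 10) and TMM scaling, DL and rest were compared over all genes with edgeR 4.0.16 (robust quasi-likelihood F test, R 4.3.3) with Benjamini-Hochberg adjustment over 17083 genes. Standard errors were derived from the fold change and its F statistic, as the size of the first divided by the root of the second. CPM is relative to the TMM-scaled library size. Medians, sums and ratios are descriptions with no test. With 3 against 3 libraries, no permutation p can fall below 0.1. Levels are not compared between genes, since lengths were not used. Values of overlapping and antisense genes are uncertain without the strand handling. The comparison was repeated with DESeq2 1.42.0, limma-voom 3.58.1 with quality weights, other scalings and filters, and leaving out libraries. The procedure was tested on simulated data.

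Members and lists were chosen with earlier results of these data known. In each class the genes given are the 3 with the smallest p in each direction and the 2 with the most counts, and in each related list the 2 with the smallest p in each direction. Further genes, and all gene pairs, were named after their values were seen. The values of 1 gene are not reported here.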

Additional observations from a re-analysis of the deposited data

How the results depend on the processing

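Of 741 values of 53 named genes under the alternatives, 708 kept their direction and their side of the threshold, 29 changed sign and 4 newly passed: NID1_ENSDARG00000068710, itga3a and ITGB1_ENSDARG00000053232 by DESeq2, and the last also without a low-count filter. The cause of these changes was not tested.

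Genes called higher over the whole table numbered 11, and 233 by DESeq2 (58 lower), 6 by limma-voom, 1 with library size as the only scaling, 99 without a low-count filter (7 lower), 0 when DL replicate 1 and rest replicate 3 were both left out, and 0 to 51 (0 to 2 lower) on leaving out 1 library, the highest without DL replicate 3. Of the collagens, laminins and nidogens DESeq2 called 1 lower. At an unadjusted p under 0.05 the lower ones numbered 9 by DESeq2, 13 by limma-voom, 10 without a filter and 2 to 11 on leaving out 1 library. The higher ones numbered 0 with library size only, 1 with both DL replicate 1 and rest replicate 3 left out and 1 to 6 on leaving out 1 library. Genes with every DL library below every rest library numbered 15 with library size only, 18 with both DL replicate 1 and rest replicate 3 left out and 9 to 17 on leaving out 1 library; those above numbered 0, 11 and 5 to 9. With fewer libraries such separation is more frequent by construction. The unadjusted counts and these separations were counted after the data were seen. Apart from 4.02% lower by DESeq2, the matching shares of all genes under these settings were not computed. A difference of the collagens, laminins and nidogens from all genes can therefore not be read from them. With library size only, the all-gene median was -0.50 in place of -0.07 and the log2 ratio of summed basement membrane CPM was -0.61 in place of -0.02. Fibrillar genes then had a median of -1.51 and basement membrane genes one of -0.84, neither corrected for that shift.

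Sign changes by setting were as follows. By limma-voom, col4a5 was -0.12, COL2A1_ENSDARG00000011407 -0.59, NID2 0.063 and BMP1_ENSDARG00000028053 -0.63. With library size only, col4a5 was -0.27, col4a6 -0.44, COL2A1_ENSDARG00000011407 -0.34, lamc1 -0.21 and BMP1_ENSDARG00000028053 -0.15, and with upper quartile scaling COL2A1_ENSDARG00000011407 was -0.0272. Without DL replicate 1 and rest replicate 3 together, col4a5 was -0.32, col4a6 -0.34, COL2A1_ENSDARG00000011407 -0.47 and BMP1_ENSDARG00000028053 -0.52. On leaving out 1 library, COL2A1_ENSDARG00000011407 ranged from -1.75 to 1.36, col4a5 from -0.66 to 0.78, col4a6 from -0.34 to 0.55, COL1A1 from -1.71 to 0.63, col21a1 from -0.18 to 0.62, col7a1 from -1.33 to 0.11, NID1_ENSDARG00000103129 from -0.017 to 1.78, NID2 from -1.05 to 0.032 and LOXL3_ENSDARG00000076306 from -0.25 to 1.66.

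No paired analysis was possible because the labels give no replicate numbers and do not tie a DL library to a rest library. For genes with few counts, differences rest on 1 or 2 libraries in several cases, named beside their values, and bounds cover counting error only. COL11A1 gave no value where a CPM of at least 1 in 3 libraries was required. Protein features were not computed, and no sequences were used here.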
